A study of Homo sapiens with 6 samples.

Results

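The genes described here encode 10 factors that turn a licensed replication origin into a moving fork or that hold the fork together: *CDC45*, *GINS1*, *GINS2*, *GINS3*, *GINS4*, *MCM10*, *TICRR*, *WDHD1*, *TIMELESS* and *CLSPN*. They were taken by gene name from a table of 58735 genes, in which each name was found once, and their expression was compared between *RRM2*-OE-TPC-1 (3 libraries) and wild strain TPC-1 (3 libraries). The parent line, TPC-1, was established from a papillary thyroid carcinoma. The *RRM2*-OE-TPC-1 cells carried *RRM2*, the small subunit of ribonucleotide reductase, on the lentiviral vector LV18 behind a CMV promoter and were selected with puromycin. No empty-vector library was analysed here, so the overexpressed gene, the vector and the selection cannot be told apart, and the sources used here do not say whether the line was 1 clone. The study's methods call the libraries of each line biological triplicates, while the labels do not say how the replicates were separated, so the p-values measure the spread between replicates of 1 line per group.

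At the end of G1, the MCM2-7 ring sits on origin DNA without unwinding it. In S phase, TICRR (also called Treslin), MTBP and TOPBP1, under the kinases CDK2 and CDC7, bring CDC45 and the GINS complex onto the ring, and the resulting CDC45-MCM-GINS (CMG) helicase is switched on with the help of MCM10. WDHD1 (AND-1, the counterpart of yeast Ctf4) ties the helicase to DNA polymerase alpha, while TIMELESS, its partner TIPIN and claspin, the product of *CLSPN*, travel with the fork, keep unwinding and synthesis together and pass a stall signal from ATR to CHK1. CDC45 and several of the factors that load it are known, best from yeast, to limit how many licensed origins fire at a time.

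*RRM2* itself stood at 9.17, 9.05 and 8.52 FPKM (fragments per kilobase of exon, scaled by a factor for each library) in the TPC-1 libraries. In the *RRM2*-OE-TPC-1 libraries it stood at 50.4, 47.5 and 47.2 FPKM, a log2 fold change of 2.43. The genotype label of *RRM2*-OE-TPC-1 replicates 2 and 3 reads RRM3 and RRM4, whereas their titles read RRM2, and their *RRM2* level lay near that of replicate 1. Reads on genes ranged from 14317091 to 17084067 per library. *RRM2*-OE-TPC-1 replicate 1 differed most from its group, with a chi-square per gene of 5.02 and 5.68 against the other two replicates, which gave 1.81 between themselves, while the TPC-1 pairs gave 2.92 to 3.08. Without that library all 10 factors were still called higher, with log2 fold changes from 0.80 (*TIMELESS*) to 2.09 (*CLSPN*). The thyroid markers *PAX8*, *FOXE1* and *HHEX* reached 0.5 FPKM, with *PAX8* lower in the overexpressing cells (on average 69.3 FPKM in TPC-1, 58.5 FPKM there), *FOXE1* also lower (4.30 and 3.19 FPKM) and *HHEX* higher (2.47 and 4.61 FPKM), whereas *TG*, *TSHR* and *SLC5A5* averaged at most 0.0841 FPKM and *NKX2-1* was listed at 0 throughout. The epithelial keratins *KRT18* (41.2 and 85.2 FPKM) and *KRT8* (2.56 and 3.48 FPKM) were higher, and *KRT19*, *EPCAM* and *CDH1* stayed under 0.5 FPKM. None of the 4 immune markers reached 0.5 FPKM. Of 3 endothelial markers *PECAM1* did, at 0.924 FPKM in TPC-1 and 0.0588 FPKM in the overexpressing cells, and of 3 fibroblast markers *COL1A1* did (0.816 and 0.501 FPKM). The part of these differences in the results was not tested.

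The level of every one of the 10 factors was higher in *RRM2*-OE-TPC-1 than in TPC-1. By limma on log2(FPKM + 0.1), 10 of 10 were called higher at the adjusted p threshold of 0.05. Of the 13621 genes tested, 67.6% passed it, 34.9% as higher and 32.7% as lower. For 9 of 10 the log2 fold change also reached 1, and both thresholds were passed by 11.5% of the tested genes, 4.48% as higher and 6.97% as lower. The exception was *TIMELESS*, with a log2 fold change of 0.82. The median log2 fold change was 1.41, against 0.01 over all tested genes. The summed level was 32.9 to 34.1 FPKM in the TPC-1 libraries, and 88.3 to 92.3 FPKM in those of *RRM2*-OE-TPC-1. The groups did not overlap for any of the 10, as for 72.2% of tested genes, of which those with all *RRM2*-OE-TPC-1 libraries on top made up 37.3% of the tested. A log2 fold change above 0 was seen for 50.8%. All 10 passed the filter on low values, the lowest with 87 reads in a library, and the genes lie on 9 chromosomes, with *GINS2* and *GINS3* both on chromosome 16. *CDC45* and *TICRR* are among the cell cycle genes that the study tabulated from these same libraries, so their direction there is no independent evidence. The libraries are bulk RNA, in which more cells in S phase and more RNA per cell cannot be told apart. By flow cytometry the study reported a larger share of S phase cells in *RRM2*-OE-TPC-1 than in TPC-1. The part of that shift in the levels given here was not tested. All 6 of 6 cycling markers were also higher, with a median log2 fold change of 0.84 (from 0.67 for *PLK1* to 1.21 for *CCNA2*) and summed levels of 183 to 195 FPKM in TPC-1 and 339 to 344 FPKM in *RRM2*-OE-TPC-1. Of the 2 markers of G1 arrest, both inhibitors of cyclin-dependent kinases, *CDKN1A* was higher, at 41.2 FPKM in TPC-1 and 207.5 FPKM in the overexpressing cells (log2 fold change 2.33), and *CDKN1B* was lower, at 29.8 and 17.95 FPKM (log2 fold change -0.73). The part of these markers in the results below was not tested.

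**Figure D1:**
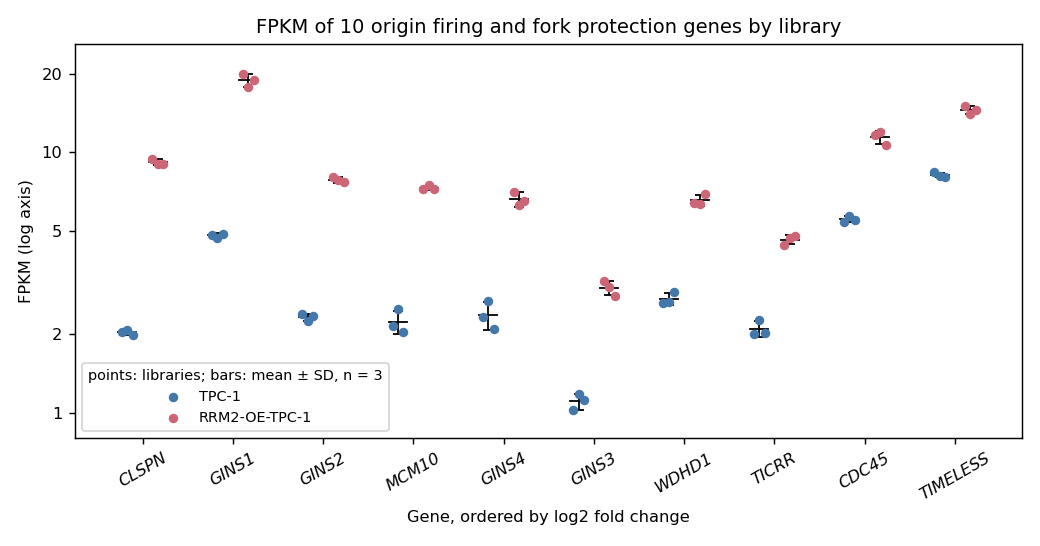
FPKM (log axis) of each of the 10 factors in the 6 libraries, ordered by log2 fold change. Points are libraries and bars are the mean ± SD (n = 3 per group). The groups are apart for every gene, and the gap is widest for *CLSPN* (2.03 and 9.14 FPKM on average) and narrowest for *TIMELESS* (8.17 and 14.5 FPKM).

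The DNA just upstream of these genes was also read. A link between its letters and the levels was not tested. Promoter sequences from RefSeq (GRCh38.p14) were found for 9 of the 10 genes, with 12 start sites, and *GINS4* had no entry. For 4 genes a window of 150 bases just upstream of a RefSeq start lay outside the gene annotated in GENCODE and is printed here. These are the genes with the largest (*CLSPN*, *GINS1*) and the smallest (*TIMELESS*) changes in level, and one of the activators (*TICRR*). At these 4 RefSeq starts the start bases were not found at the 5′ end of a transcript, whereas at the other starts they were. The printed windows thus need not lie directly before the start of the annotation used for FPKM. For *GINS1* the window ends at 25407672 and the annotated gene begins at 25407727. The windows are chr1:35769979-35770128 (minus strand) for *CLSPN*, chr20:25407523-25407672 (plus strand) for *GINS1*, chr15:89575319-89575468 (plus strand) for *TICRR* and chr12:56449427-56449576 (minus strand) for *TIMELESS*. Each is written 5′ to 3′ on the gene's strand, and capitals mark a CCAAT box on either strand.
CLSPN promoter: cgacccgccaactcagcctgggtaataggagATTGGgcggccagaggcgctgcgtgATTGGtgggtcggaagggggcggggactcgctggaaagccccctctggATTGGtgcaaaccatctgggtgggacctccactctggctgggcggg
GINS1 promoter: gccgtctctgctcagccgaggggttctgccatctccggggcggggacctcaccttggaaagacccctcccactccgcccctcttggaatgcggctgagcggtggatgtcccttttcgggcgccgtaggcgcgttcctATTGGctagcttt
TICRR promoter: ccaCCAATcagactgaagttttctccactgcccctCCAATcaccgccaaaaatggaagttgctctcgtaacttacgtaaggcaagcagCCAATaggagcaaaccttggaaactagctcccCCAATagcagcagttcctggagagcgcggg
TIMELESS promoter: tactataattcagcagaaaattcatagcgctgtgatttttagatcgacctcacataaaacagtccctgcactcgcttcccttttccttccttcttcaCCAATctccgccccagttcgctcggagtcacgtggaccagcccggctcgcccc

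The CCAAT box, the letters bound by the factor NF-Y, is common upstream of cell cycle genes. It was present on either strand in the 250 bases before 9 of the 12 starts, which belong to 7 of the 9 genes. Counted by start in the same way, 32.0% of 35116 RefSeq promoters held it. Starts of *TICRR* lie close together, as do starts of *CDC45*, so some of the same letters were counted at more than 1 start. The share of all genes, counted by gene, was not computed. *CLSPN* had 3 copies, *CDC45* had 4 and *TICRR* had 5 at the start with the most, while *GINS1* and *TIMELESS*, near opposite ends of the changes in level, had 1 each. The starts of *GINS3* and *WDHD1* held none. The E2F letters searched were TTCCCGC, with the further forms TTGGCGC, then also TTCGCGC, and the last form TTGCCGC. The form TTGGCGC can share bases with ATTGG, the CCAAT box read on the other strand. The E2F letters were found on either strand before 1 of the 12 starts, that of *GINS2*, and in 10.9% of all promoters. The letters TTTGAA, the core of the cell cycle genes homology region, were found before 0 of the 12 starts and in 13.3% of all promoters. With the shorter E2F letters TTGGCG or TTCCCG, a choice made after the promoters had been read, 6 of the 12 starts had a match. These belong to 5 of the 9 genes, and 19.7% of all promoters had a match. A match describes letters in a window, and these counts were not tested.

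**Figure D2:**
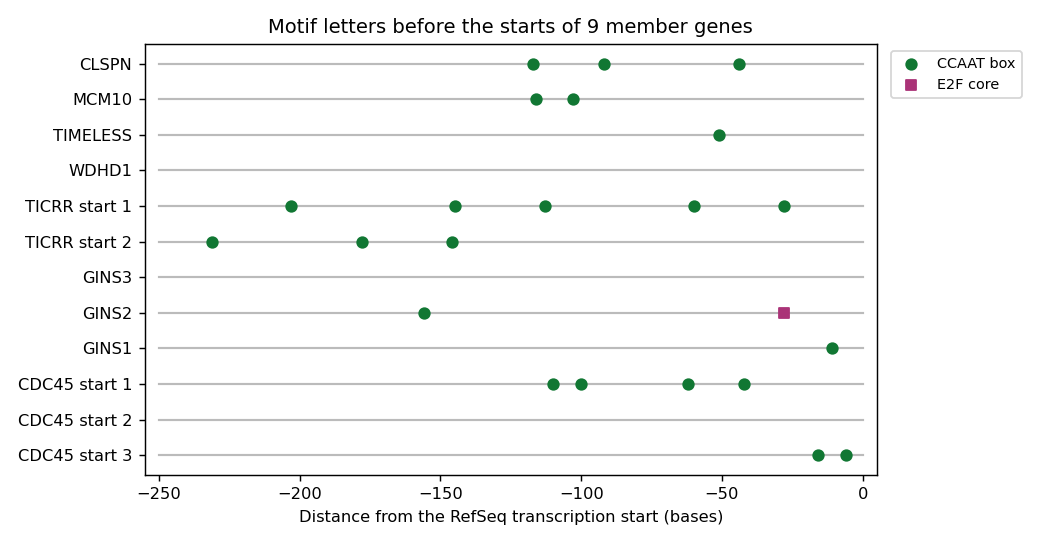
Position, in bases before the RefSeq start, of each CCAAT box and E2F core in the 250 bases upstream of 12 starts of 9 genes. CCAAT boxes are seen at 9 of the 12 starts, and an E2F core is seen upstream of *GINS2* alone among these starts.

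*TICRR*, the CDK substrate that starts CDC45 loading (ENSG00000140534, chromosome 15, 89575482 to 89631056, GRCh38), was measured at 2.00, 2.26 and 2.02 FPKM in TPC-1 and at 4.397, 4.690 and 4.75 FPKM in *RRM2*-OE-TPC-1. The lowest *RRM2*-OE-TPC-1 library lay well above the highest TPC-1 library. The log2 fold change was 1.10 (SE 0.0783, adjusted p = 6.94e-06), just past the fold threshold, and 0.86 with a pseudocount of 1, which missed it. In 7.01% of its exonic bases (589 bases) *TICRR* overlaps *KIF7*, a ciliary kinesin gene on the opposite strand. The study's methods describe directional libraries. The sources used here do not say whether counting used strand, so reads there cannot be told apart. *KIF7* was at 6.67 ± 0.109 FPKM in TPC-1 against 7.28 ± 0.0849 FPKM in *RRM2*-OE-TPC-1 (SD, n = 3), a log2 fold change of 0.12, and its share of the *TICRR* value was not tested.

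*CDC45* encodes the subunit that clamps onto the MCM ring (ENSG00000093009, chromosome 22, 19479459 to 19520612). Its level was 5.39, 5.68 and 5.49 FPKM in TPC-1 and 11.6, 11.9 and 10.7 FPKM in *RRM2*-OE-TPC-1. All *RRM2*-OE-TPC-1 libraries were above all TPC-1 libraries, at 2.07 times the TPC-1 mean. The log2 fold change of 1.03 (SE 0.0554, adjusted p = 1.65e-06) sat on the fold threshold, and it was 0.98 with scaling by library totals and 0.93 with a pseudocount of 1. *CDC45* thus passed the adjusted p under both settings and missed the fold threshold.

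The GINS subunits together form the other accessory part of the helicase, and all 4 passed both thresholds. *GINS1* (chromosome 20, 25407727 to 25452628) showed the largest change of the complex, from 4.82, 4.69 and 4.86 FPKM in TPC-1 to 20.02, 17.8 and 18.8 FPKM in *RRM2*-OE-TPC-1. That is a log2 fold change of 1.96 (SE 0.0531, adjusted p = 6.56e-08), the 93rd highest of the 13621 genes tested. *GINS2* (chromosome 16, 85676198 to 85690073) was at 2.39, 2.24 and 2.35 FPKM in TPC-1 and at 8.03, 7.82 and 7.65 FPKM in *RRM2*-OE-TPC-1, with a log2 fold change of 1.71 (SE 0.0592). The replicates of *GINS2* lay close together in both groups and far from the other group. *GINS4* (chromosome 8, 41529206 to 41545046) was at 2.32, 2.67 and 2.10 FPKM in TPC-1, the widest spread of the complex there, and at 7.05, 6.25 and 6.47 FPKM in *RRM2*-OE-TPC-1. Its log2 fold change was 1.45 (SE 0.0965). *GINS3* (chromosome 16, 58295080 to 58406144) had the lowest level of the 10 genes in both groups, at 1.02, 1.18 and 1.12 FPKM in TPC-1 and 3.20, 3.03 and 2.82 FPKM in *RRM2*-OE-TPC-1, with a log2 fold change of 1.37 (SE 0.0983, adjusted p = 7.40e-06). With a pseudocount of 1 its log2 fold change was 0.93, under the fold threshold. It rested on 87 to 101 reads per TPC-1 library, the fewest of the set. Antisense genes cover 10.9% of the exonic bases of *GINS3* and 21.2% and 2.39% of those of *GINS4*, and 5.17% of those of *CLSPN*, but none of these antisense genes exceeded 0.344 FPKM in a library. *GINS2* shares 7 exonic bases with *GSE1* on the opposite strand, whose log2 fold change was -1.09.

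Because the GINS subunits work as 1 complex, their FPKM values, which are per length, were also given as shares of their sum. *GINS1* took 43.5% to 46.6% of the sum in TPC-1 against 51.0% to 52.7% in *RRM2*-OE-TPC-1, 6.70 percentage points more on average. The share of *GINS4* was 20.1% to 24.8% in TPC-1 against 17.9% to 18.4% in *RRM2*-OE-TPC-1, and that of *GINS3* averaged 10.4% ± 0.663 and 8.30% ± 0.410 (SD, n = 3). Both shares were lower in every *RRM2*-OE-TPC-1 library than in every TPC-1 library, although both genes had risen in level. *GINS2* kept to 20.8% to 22.6% in TPC-1 against 21.0% to 22.4% in *RRM2*-OE-TPC-1, and its groups overlapped. The highest subunit mean was 4.33 times the lowest in TPC-1 against 6.26 times in *RRM2*-OE-TPC-1.

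**Figure D3:**
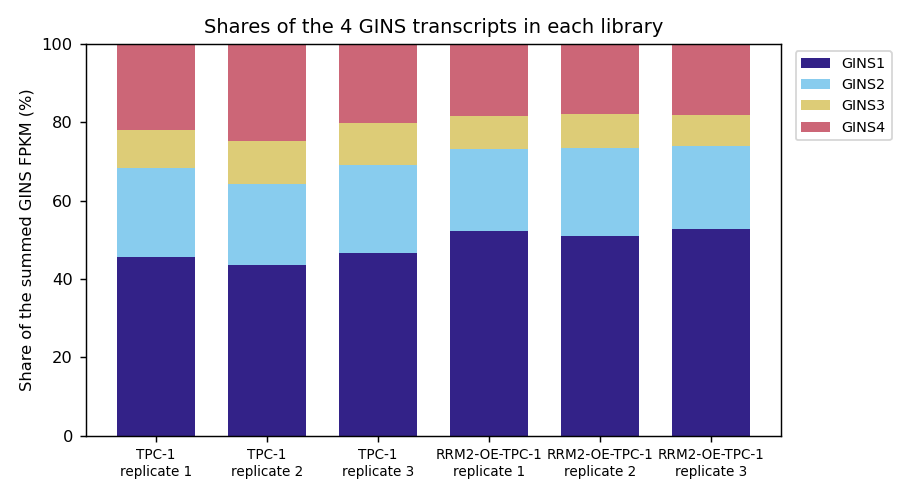
Share (percent) of the summed FPKM of the 4 GINS genes taken by each of them in each of the 6 libraries. The *GINS1* share is above 51% in all *RRM2*-OE-TPC-1 libraries and below 47% in all TPC-1 libraries.

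*MCM10*, which encodes the factor that switches on the assembled helicase (ENSG00000065328, chromosome 10, 13161554 to 13211104), was at 2.15, 2.50 and 2.05 FPKM in TPC-1. In *RRM2*-OE-TPC-1 it was at 7.23, 7.46 and 7.25 FPKM. The *RRM2*-OE-TPC-1 libraries lay closer to each other than the TPC-1 libraries did and stood 3.28 times higher on average, with a log2 fold change of 1.67 (SE 0.0815, adjusted p = 1.03e-06). *WDHD1*, the link between helicase and polymerase alpha (ENSG00000198554, chromosome 14, 54938950 to 55027105), was at 2.65, 2.66 and 2.90 FPKM in TPC-1 and at 6.37, 6.34 and 6.88 FPKM in *RRM2*-OE-TPC-1. Its groups were separate, and its log2 fold change was 1.23 (SE 0.0676, adjusted p = 1.88e-06).

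The fork protection genes held both ends of the range. *CLSPN* (ENSG00000092853, chromosome 1, 35720218 to 35769967) had the largest change of the 10, from 2.04, 2.08 and 1.98 FPKM in TPC-1 to 9.42, 8.997 and 9.001 FPKM in *RRM2*-OE-TPC-1. The mean was 4.50 times higher, with a log2 fold change of 2.12 (SE 0.0578, adjusted p = 6.79e-08), the 74th highest of all tested genes. Claspin is the adaptor on which ATR activates CHK1. *TIMELESS* (ENSG00000111602, chromosome 12, 56416373 to 56449403) had the smallest change, from 8.35, 8.10 and 8.06 FPKM in TPC-1 to 14.98, 14.04 and 14.5 FPKM in *RRM2*-OE-TPC-1. Its log2 fold change of 0.82 (SE 0.0432, adjusted p = 1.50e-06) ranked 999th. The mean was 1.78 times that of TPC-1, and every *RRM2*-OE-TPC-1 library lay above the highest TPC-1 library.

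When the null hypothesis was a change of at most 1 on the log2 scale, instead of no change, 5 of the 10 passed the adjusted p: *CLSPN*, *GINS1*, *GINS2*, *MCM10* and *GINS4*. Of all 13621 genes tested, 618 passed it in either direction. For the other five (*GINS3*, *WDHD1*, *TICRR*, *CDC45* and *TIMELESS*) a change larger than that was not shown.

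The order of levels differed between the groups. In TPC-1, *TIMELESS* had the highest mean FPKM (8.17 ± 0.159), followed by *CDC45* (5.52 ± 0.149) and *GINS1* (4.79 ± 0.0866; SD, n = 3). These were set apart from the rest, whereas the ranges of neighbours from *WDHD1* (2.74) through *GINS4* (2.36), *GINS2* (2.32), *MCM10* (2.23) and *TICRR* (2.10) to *CLSPN* (2.03) overlapped in all 5 neighbouring pairs, and *GINS3* was lowest at 1.11 FPKM. In *RRM2*-OE-TPC-1, *GINS1* came first (18.9 ± 1.11 FPKM), then *TIMELESS* (14.5 ± 0.473) and *CDC45* (11.4 ± 0.637). *CLSPN* moved from rank 9 to rank 4 (9.14 ± 0.245 FPKM), above *GINS2* (7.83), *MCM10* (7.31), *GINS4* (6.59), *WDHD1* (6.53), *TICRR* (4.61) and *GINS3* (3.01). Of the 9 neighbouring pairs there, 1 overlapped, *GINS4* and *WDHD1*. The highest mean was 7.39 times the lowest in TPC-1 against 6.26 times in *RRM2*-OE-TPC-1.

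To see how far partners moved in step, 12 log2 ratios of FPKM were computed within each library and compared by a two-sided exact permutation test, which with 3 libraries against 3 cannot give a p below 0.1. In 10 of the 12 the groups did not overlap (p = 0.1 each by the exact test, 0.12 adjusted over the 12), so none could pass the threshold. The groups also did not overlap for 72.2% of single genes tested. The share among ratios of other gene pairs was not computed, so the count cannot be called particular to these partners. The widest difference was for *CLSPN* over *CHEK1*, the gene of the kinase that claspin serves, which was -1.33 ± 0.0784 in TPC-1 against 0.19 ± 0.0896 in *RRM2*-OE-TPC-1 (SD, n = 3). *CLSPN* was thus below *CHEK1* in level per length in every TPC-1 library and above it in every *RRM2*-OE-TPC-1 library. *WDHD1* over *POLA1*, the catalytic subunit of the polymerase that it binds, was -0.72 ± 0.110 in TPC-1 against 0.08 ± 0.140 in *RRM2*-OE-TPC-1. *MCM10* over *CDC45* was higher by 0.67 in *RRM2*-OE-TPC-1, and *CDC45* over the mean log2 level of the GINS genes was lower there, at 0.63 ± 0.0886 against 1.25 ± 0.0176. *TICRR* over its partner *MTBP* was 0.16 in TPC-1 against 0.46 in *RRM2*-OE-TPC-1. Ratios of *GINS1* to each of the other GINS genes stood higher in *RRM2*-OE-TPC-1 by 0.22 (*GINS2*), 0.53 (*GINS3*) and 0.49 (*GINS4*), and those of *GINS2* to *GINS3* and *GINS4* by 0.31 and 0.27. The last of these rested in part on TPC-1 replicate 2, without which it was 0.15.

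The other two ratios overlapped between groups on FPKM without a pseudocount. *TIMELESS* over *TIPIN*, the genes of the obligate fork protection pair, was 1.33 ± 0.132 in TPC-1 against 1.23 ± 0.0365 in *RRM2*-OE-TPC-1 (n = 3, exact permutation p = 0.3, 0.327 adjusted). Its difference of -0.10 was -0.03 without TPC-1 replicate 3 and -0.16 without TPC-1 replicate 2, and with quantile normalization it was -0.18 and the groups no longer overlapped. *GINS3* over *GINS4* differed by -0.04 (exact permutation p = 0.8), and this difference changed sign without TPC-1 replicate 3, to 0.06. Without TPC-1 replicate 1 or TPC-1 replicate 2 it was -0.08, and so it was without *RRM2*-OE-TPC-1 replicate 2, while without *RRM2*-OE-TPC-1 replicate 3 it was -0.0008. With a pseudocount of 1 it was -0.25 and the groups no longer overlapped.

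**Figure D4:**
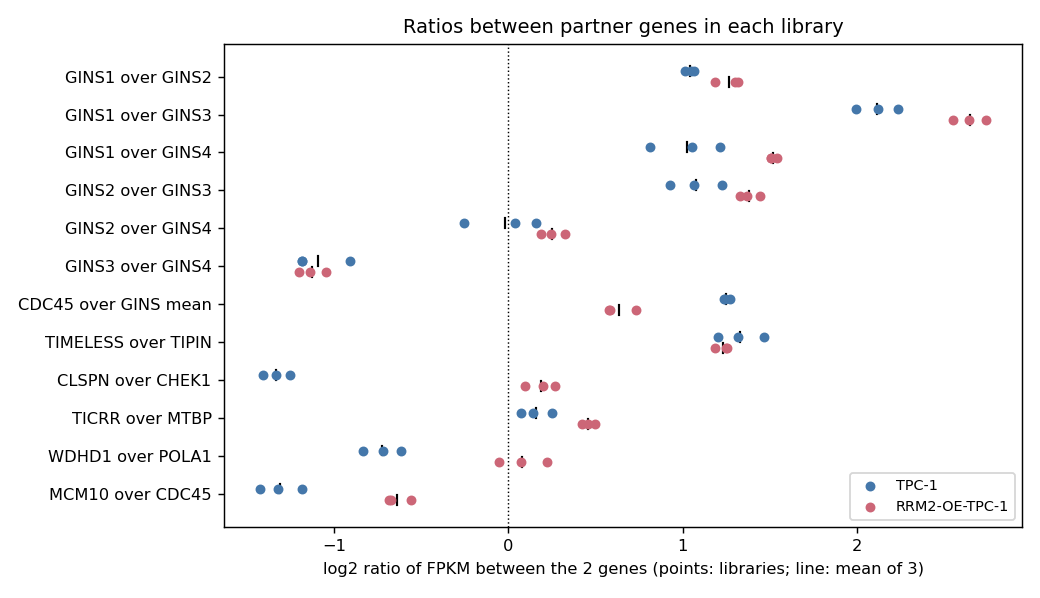
The 12 log2 ratios of FPKM in each of the 6 libraries, with points for libraries and black lines for the mean of 3. *CLSPN* over *CHEK1* and *WDHD1* over *POLA1* are widely apart between the groups, while *TIMELESS* over *TIPIN* and *GINS3* over *GINS4* overlap.

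Other genes of origin firing and of the replisome were counted in 6 lists that hold none of the 10 factors, 45 genes in all. Of these, 36 were higher, 4 were lower and 5 did not pass the adjusted p, and 8 were higher and past both thresholds. Their median log2 fold change was 0.72, against 1.41 for the 10 factors, and 2 of the 45 (*DSCC1* and *MCM4*, named for this after their values were seen) exceeded the latter. No test of the difference between the lists was made.

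Among firing kinases and partners, 9 of 9 genes were higher, with a median of 0.81. The highest was *RECQL4*, a RecQ helicase whose N-terminal part resembles a yeast firing factor, at 7.53 ± 0.366 FPKM in TPC-1 against 17.2 ± 1.06 FPKM in *RRM2*-OE-TPC-1 (log2 fold change 1.18, SD, n = 3), and it alone of the list passed the fold threshold. *MTBP*, the partner of *TICRR*, was the median gene with 1.88 ± 0.0561 and 3.36 ± 0.146 FPKM, and *RIF1*, which brings a phosphatase that opposes CDC7, was the lowest at a log2 fold change of 0.27. The genes of the MCM2-7 ring, onto which CDC45 and GINS are loaded, were higher in 6 of 6, from 0.63 for *MCM5* to 1.48 for *MCM4*, with a median of 0.74, where the 4 GINS genes had a median of 1.58. *MCM4* was the only ring gene past the fold threshold.

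The polymerases that meet the helicase were also higher in each subunit. For polymerase alpha-primase, which WDHD1 holds at the fork, 4 of 4 rose, with log2 fold changes from 0.44 (*POLA1*) to 1.21 (*POLA2*) and a median of 1.05. For polymerase epsilon, which rides on CMG and makes the leading strand, 4 of 4 rose, from 0.65 (*POLE4*) to 1.26 (*POLE2*), with a median of 0.80.

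The list of fork protection, checkpoint and cohesion partners was mixed: 10 of 17 were higher, 3 were lower and 4 did not pass, with a median of 0.52 at *ATR*. *DSCC1*, a subunit of the alternative clamp loader that serves cohesion, was highest, from 3.37 ± 0.541 to 11.0 ± 0.198 FPKM (log2 fold change 1.69). *RAD17*, which loads the checkpoint clamp, was lowest (log2 fold change -0.45, adjusted p by limma 0.000245). The other lower genes, named after their values were seen, were *HLTF* (-0.44), a fork remodeller, and *ETAA1* (-0.38), an activator of ATR. *TIPIN* had a log2 fold change of 0.91 and *CHEK1* of 0.64. Of 5 genes for taking the replisome off chromatin, 3 were higher, 1 was lower and 1 did not pass, from *UBXN7* at -0.59 through *CUL2* at 0.20 to *TRAIP*, a ubiquitin ligase, at 0.82.

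**Figure D5:**
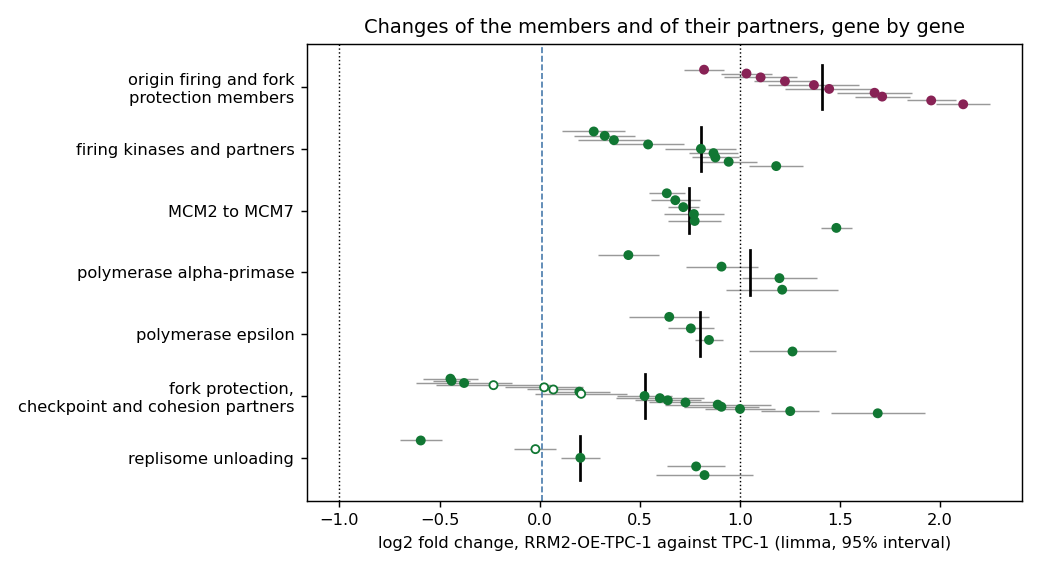
Log2 fold change (*RRM2*-OE-TPC-1 over TPC-1) with its 95% limma interval for the 10 factors and the 45 genes of the 6 partner lists. Filled points have an adjusted p of 0.05 or less, black lines are list medians, dotted lines mark ±1 and the dashed line is the median of all tested genes. The 10 factors have a median of 1.41, and the list medians run from 0.20 to 1.05.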

How the data were processed

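RNA sequencing was done on 3 libraries of wild strain TPC-1 and 3 of *RRM2*-OE-TPC-1, grouped by the labels. The authors deposited 1 table of FPKM values with the exonic length (in bases) of each gene. The submitters' processing notes name HISAT2 2.0.5, featureCounts 1.5.0, DESeq2 1.20.0 and GRCh38.p14. The study's methods describe directional libraries, while the strand setting of the counting is not given in the sources used here. The methods describe poly(A) selection, whereas the labels describe rRNA removal with RNase R, and this difference could not be settled. All 58735 gene identifiers and positions matched GENCODE 29, and 12 symbols that read as dates were kept as deposited. Scaling FPKM by gene length and by a factor for each library gave whole reads for 100% of values (tolerance 0.01). That gave 14317091 to 17084067 reads on genes per library, a depth that limits counting precision for the lowest genes. The factor was 1.03 to 1.05 times the reads on genes in TPC-1 and 0.997 to 1.01 times in *RRM2*-OE-TPC-1, so it was not their total. It followed median-of-ratios factors, which scale each library by its typical gene. Applying those left the log2 fold change of *CDC45* at 1.03.

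Because the values are FPKM, limma 3.58.1 (R 4.3.3) was applied to log2(FPKM + 0.1), with a variance trend and Benjamini-Hochberg adjustment over 13621 genes with at least 0.5 FPKM and 10 reads in 3 libraries. Fold changes on this scale understate those of low genes. Calls were an adjusted p of 0.05 or less, and this with a log2 fold change of at least 1 in either direction. Python 3.11.15 with matplotlib 3.10.9, scipy 1.17.1, pandas 2.3.3 and numpy 2.4.6 served for ratios, promoter letters and plots. The procedure was tested on simulated data. Ratios were taken on FPKM without a pseudocount.

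The 10 genes, the partner lists and the tests were chosen with earlier results of these data known. Named genes were the 10, *RRM2*, the highest, lowest and median gene of each partner list, the partners used in ratios and genes that overlap the 10. Alternatives were other pseudocounts, filters, scalings, a test against a change of 1, limma with voom on recovered reads, a replicate block, and leaving out each library. No sequence of *GINS4* was read.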

Additional observations from a re-analysis of the deposited data

How the results depend on the processing

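Of 420 values recomputed over 18 alternative settings, 404 kept their direction and their side of the p threshold, or stayed within 1.5 times for counts. Ratios entered by direction alone, since none could pass the p threshold. Scaling a whole library cancels within a ratio. Median-of-ratios factors nearly repeated the scaling of the deposited values (*CDC45* 1.03 with either). Part of the 404 was thus fixed beforehand and does not measure robustness. The fold threshold was not part of that count. The test against a change of 1 (log2) called 5 of the 10 factors under either rule, 618 genes in all and 3 of the 45 partners. It did not call *CDC45* (1.03, adjusted p by limma 1), *GINS3* (1.37, 0.0608), *TICRR* (1.10, 1), *WDHD1* (1.23, 0.105) and *TIMELESS* (0.82, 1), since it asks for more than a change of 1. With a pseudocount of 1, which shrinks the fold changes of low genes, 716 genes, 6 of the 10 factors and 4 partners passed both thresholds. Scaling by library totals left 8 factors past both. limma with voom on recovered reads called 10 and 9 factors, and 9577 and 1734 genes. The difference in *GINS3* over *GINS4* reversed to 0.011 with quantile normalization, and ranged from -0.083 to 0.056 when 1 library was left out. That in *TIMELESS* over *TIPIN* reversed to 0.0014 with a pseudocount of 1, and the cause of these reversals was not tested. With a pseudocount of 1 the ratio differences of *GINS1* over *GINS2* (0.37), *GINS1* over *GINS3* (0.85) and *GINS2* over *GINS3* (0.48) grew by over 1.5 times. Those of *CDC45* over the GINS mean (from -0.62 to -0.40) and *MCM10* over *CDC45* (from 0.67 to 0.44) shrank by over 1.5 times. All of these kept their sign. Leaving out any 1 library kept 10 and 9 factors past the rules, with 8555 to 8772 and 1573 to 1608 genes called. With a replicate block, 10 and 9 factors, 8934 and 1566 genes, and 39 and 8 partners were called, and the block changed no call of the 10 factors. Same-numbered libraries did not deviate together (correlations -0.011, -0.0060 and -0.055), so the numbers were not taken to pair them. Depth limits *GINS3* most, at 87 reads in its lowest library.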
